A study of Mus musculus with 7 samples.

Results

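Nuclear receptors are transcription factors that bind hormones, fatty acids, bile acids, oxysterols or other lipids, and PGC-1 coactivators dock on several of them to raise the transcription of genes for mitochondria and fat oxidation. Their mRNA levels were examined here as a listed gene family: 37 receptor genes and the 2 coactivator genes Ppargc1a and Ppargc1b, 39 of the 23594 genes in the table, and all 39 names were found there. Liver RNA came from 4 TgLC and 3 TgL mice, one library per mouse. Both genotypes carry a Lif gene knocked into the Rosa26 locus behind a CAG promoter and a STOP cassette, and both received the same TAM injection (labelled as 32 µg/g for females and 64 µg/g for males) at 8 weeks of age. Only TgLC mice also carry R26-CreERT2, a Cre recombinase that TAM activates, so that the STOP cassette is removed and LIF is made in many tissues and not in the liver alone. TgL mice carry no Cre, so an action of activated Cre cannot be told apart from that of LIF in this design. The question was which receptor genes differed in the liver when LIF, a cytokine that signals through STAT3, was overexpressed. The day and hour of tissue collection and the sex of each mouse were not given in the sources used here.

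Many of these receptors, such as the PPARs, LXRs, FXR, CAR, PXR and the receptors for thyroid hormone and retinoic acid, bind DNA next to the retinoid X receptors (RXRs), their shared partners, on repeats of the half-site AGGTCA. Others, such as the steroid receptors, HNF4A and the REV-ERBs, act without RXR. In the liver, PPARα drives fatty acid oxidation, FXR holds back bile acid synthesis, LXRs turn on lipogenesis, CAR and PXR turn on drug-metabolizing enzymes, and HNF4A maintains the hepatocyte program. REV-ERB repressors and RORs bind a related element and couple metabolism to the circadian clock. A change in the mRNA of a receptor is not a measure of its ligand or of its activity, and neither was measured here.

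TgL mice 1 and 2 and TgLC mice 1 and 2 have titles in one run of numbers, called the label series here, while TgL mouse 3 has a number outside it and TgLC mice 3 and 4 carry titles of another kind that no TgL mouse has. What these titles stand for is not given in the sources used here. Depth was 11325974 to 12448961 reads in genes in TgLC mice and 9367681 to 11030699 in TgL mice. Lif lay at 10 to 25.04 normalized counts (reads divided by 1 size factor per mouse) in TgLC livers, against 0 to 1.99 in TgL livers, and Socs3, a feedback inhibitor that STAT3 induces, was higher in TgLC livers by 4.80 on the log2 scale (limma, adjusted p = 3.06e-06). TgL mouse 3 stood apart from the other TgL mice on clock output, with 45.9 normalized counts of Dbp against 548 and 733, and on Y-linked reads, whose sum over 4 genes was 22.4, against at most 2.05 in any other mouse. Xist was present in all 7 livers (3521 to 7618 in TgLC and 7445 to 9246 in TgL). Among cell type markers, the summed hepatocyte list was 865652 to 952353 in TgLC and 1262060 to 1310890 in TgL livers, with 2 of its 10 genes higher and 3 lower. Most of that sum was Alb (550874 to 700732 in TgLC and 923741 to 992652 in TgL livers), which was not called (limma adjusted p = 0.169). The bile duct sum was 803 to 2062 in TgLC and 501 to 667 in TgL livers, with Sox9 alone higher of 5 tested. The neutrophil sum was 87.2 to 171 in TgLC and 15.9 to 62.2 in TgL livers, with 3 of 4 tested higher. Of these, Retnlg and S100a8 averaged 1.01 and 5.25 in TgL livers. They reached the mean of 10 normalized counts needed for a test only through TgLC livers, so they could only come out higher. Stellate cell markers summed to 4280 to 11295 in TgLC and 4400 to 4840 in TgL livers, with 4 of 10 higher and 1 lower. The exocrine pancreas list summed to 39.0 to 53.6 in TgLC and 654 to 1005 in TgL livers, and Pnlip, Cpa1 and Cel had 0 reads in every TgLC liver. Its 8 tested genes were all lower. Of these only Cela1 averaged over 10 in TgLC livers (45.7). The others were tested through TgL livers alone, so their direction was fixed by the filter. Of all genes tested, 15.0% were lower and 16.2% higher. The part of these lists in the results below was not tested, and in bulk tissue fewer cells of a type and less RNA per cell cannot be told apart.

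Of the 39 genes, 35 averaged at least 10 normalized counts across the mice and were tested. In TgLC livers 8 of the 35 were lower and 1 was higher (limma, adjusted p under 0.05 over all 13145 genes tested). Those that fell were Ppara, Nr3c1, Ppargc1b, Esrrg, Nr1i3, Thrb, Nr6a1 and Nr1d2, and Hnf4a rose. Of these, Esrrg averaged 4.78 in TgLC livers and reached the minimum only through TgL livers, so it could only come out lower. The share lower was 22.9%, against 15.0% of all genes tested, and the share higher was 2.86%, against 16.2%. In either direction 25.7% of the 35 were called, against 31.2% of all genes, so the family was not called more often than the rest of the transcriptome. With a change of at least 2-fold, 4 members were lower (6.65% of all genes were) and 0 were higher (7.53% of all genes were). The median log2 fold change was -0.27 over the 35 members and 0.00 over all genes tested. For 9 of the 35, or 25.7%, the mice of the genotypes did not overlap, against 41.1% of all genes tested, and 8 of the 9 were lower in TgLC livers, against 19.9% of all genes lower without overlap and 21.1% higher. Leaving out each of the 7 mice in turn, 6 members passed in all 7 fits, namely Ppara, Nr3c1, Ppargc1b, Esrrg, Nr1i3 and Thrb, while Nr1d2 and Hnf4a passed in 1 fit each and Nr6a1 in 4. Nothing else is known of whether the mice shared litters or cages, so these p-values measure the spread between these animals.

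**Figure D1:**
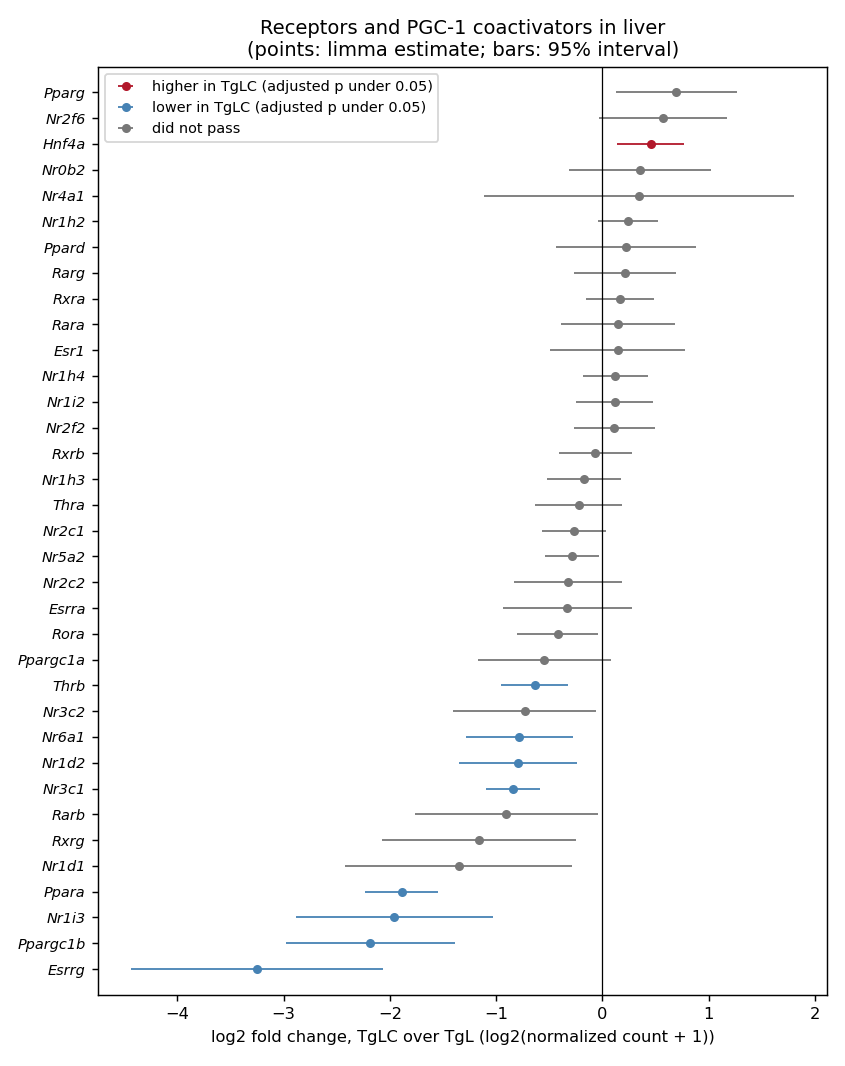
Log2 fold change (TgLC over TgL) with its 95% interval from limma for the 35 receptor and coactivator genes tested, ordered by fold change, with the color giving the call. The 8 lower members lie between -3.25 (Esrrg) and -0.64 (Thrb), and the only higher member is Hnf4a at 0.45.

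Among the PPARs, receptors for fatty acids and their derivatives, Ppara was the member with the smallest adjusted p of the family. It read 316, 355, 389 and 406 normalized counts in the 4 TgLC livers, against 1519, 1495 and 1093 in the 3 TgL livers. Every TgLC liver lay below every TgL liver, and the TgLC livers were close to each other. The log2 fold change was -1.89 ± 0.15 (SE, 95% interval -2.23 to -1.55, limma adjusted p = 4.23e-05), a mean 3.74 times lower in TgLC livers. Without single mice it stayed between -2.04 and -1.81. Pparg, the adipocyte receptor that also promotes fat storage in liver, read 62.0, 78.8, 108 and 122 in TgLC and 51.0, 66.7 and 48.9 in TgL livers. One TgLC liver fell within the TgL range, and the log2 fold change of 0.70 ± 0.25 missed the threshold (limma adjusted p = 0.0641), though it passed without TgLC mouse 1 (0.87, adjusted p = 0.0203). Ppard, the PPAR found in most tissues, read 135, 109, 110 and 110 in TgLC and 74.2, 73.7 and 176 in TgL livers. Here the third TgL liver was above all others while the other TgL livers were below all TgLC livers, giving 0.22 ± 0.29 with all mice (adjusted p = 0.595) and 0.64 without TgL mouse 3 (adjusted p = 0.0300, limma).

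The coactivators differed from each other. Ppargc1b, which encodes PGC-1β, a coactivator of mitochondrial and lipogenic genes, read 19.0, 20.5, 19.2 and 15.0 in TgLC livers and 117, 123 and 44.9 in TgL livers. TgL mouse 3 was the lowest of its group but still above every TgLC liver. Its log2 fold change was -2.18 ± 0.35 (95% interval -2.98 to -1.39, limma adjusted p = 0.00185), and -2.65 to -1.93 with single mice left out. Ppargc1a, which encodes PGC-1α, the coactivator that fasting induces in liver, read 182, 108, 83.0 and 81.1 in TgLC and 157, 185 and 133 in TgL livers. TgLC mouse 1 lay among the TgL livers and the other TgLC livers below them. The change was -0.55 ± 0.28 (adjusted p = 0.167), and -0.80 without TgLC mouse 1 (adjusted p = 0.0146, limma). Per kilobase of exon, the ratio of Ppargc1a to Ppargc1b was 3.71 ± 1.42 (SD, n = 4) in TgLC and 1.17 ± 0.54 (SD, n = 3) in TgL livers, with no overlap between the genotypes.

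Promoters of 4 members that fell are printed to show what lies before their RefSeq start sites (GRCm38.p6, 250 bases up to the start, read 5′ to 3′ along the gene), in lower case with capitals on matches to the motifs AGGTCA, the receptor half-site, or CACGTG, the E-box of the clock. No capital stands in the Ppara window.
Ppara, chr15:85735526-85735775, plus strand: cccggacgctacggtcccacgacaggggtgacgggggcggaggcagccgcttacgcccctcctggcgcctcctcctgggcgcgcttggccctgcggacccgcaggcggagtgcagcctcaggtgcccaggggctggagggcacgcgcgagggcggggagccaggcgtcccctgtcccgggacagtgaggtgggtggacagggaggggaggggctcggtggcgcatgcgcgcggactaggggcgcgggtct
Nr1i3, chr1:171213720-171213969, plus strand: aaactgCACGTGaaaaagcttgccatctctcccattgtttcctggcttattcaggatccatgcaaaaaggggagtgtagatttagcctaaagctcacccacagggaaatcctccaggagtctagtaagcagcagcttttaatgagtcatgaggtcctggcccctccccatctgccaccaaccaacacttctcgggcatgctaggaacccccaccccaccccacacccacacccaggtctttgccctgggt
Nr1d2, chr14:18239107-18239356, minus strand: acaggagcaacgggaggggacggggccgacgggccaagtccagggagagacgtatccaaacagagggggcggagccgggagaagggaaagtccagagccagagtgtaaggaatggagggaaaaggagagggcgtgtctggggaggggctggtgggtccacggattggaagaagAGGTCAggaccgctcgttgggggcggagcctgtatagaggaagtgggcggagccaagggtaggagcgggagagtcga
Thrb, chr14:17660710-17660959, plus strand: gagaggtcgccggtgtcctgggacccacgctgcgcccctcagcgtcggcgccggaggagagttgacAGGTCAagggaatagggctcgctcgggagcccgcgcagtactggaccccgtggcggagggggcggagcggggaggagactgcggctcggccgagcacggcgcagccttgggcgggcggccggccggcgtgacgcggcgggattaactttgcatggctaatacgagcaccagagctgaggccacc

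Windows of 300 bases, from 250 before to 50 after the start, were used for 35 of the 39 members. Hnf4g and Thra had no window. Windows on chromosome 18 were left out for members, which excludes Nr3c1 and Ppargc1b, both lower in TgLC livers. The shares over all genes were taken without that exclusion. The member windows were read as follows. They were searched on both strands for AGGTCA, for CACGTG and for TTCNNNGAA, the letters that STAT proteins bind. AGGTCA was in a window of 10 of the 35 members, among them 3 of 6 lower ones, against 18.1% of all 27025 genes. CACGTG was in 4 of 35, 2 of them lower, against 8.09%, and TTCNNNGAA in 5 of 35, 1 of them lower, against 9.55%. The printed matches start 244 bases before the start of Nr1i3 for CACGTG, 77 before that of Nr1d2 and 184 before that of Thrb for AGGTCA. The members have more windows per gene than other genes. Counted by window, AGGTCA was in 11 of 54 member windows, against 16.3% of all 32851, CACGTG in 5 of 54, against 7.15%, and TTCNNNGAA in 5 of 54, against 8.3%. A match in such a window is a description of the letters and not a measured site.

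Among the sensors of bile acids, oxysterols and drugs, 1 of 6 was called, where 31.2% of all genes tested were. The gene called was lower. Nr1i3 encodes CAR, the receptor that turns on Cyp2b10 in response to drugs and whose promoter is printed above with its E-box letters. It read 66.0, 89.1, 71.8 and 240 normalized counts in TgLC livers, against 459, 448 and 297 in TgL livers. TgLC mouse 4 was well above the other TgLC livers but still below every TgL liver. The log2 fold change was -1.96 ± 0.41 (95% interval -2.89 to -1.03, limma adjusted p = 0.00684), and it was -2.38 without TgLC mouse 4, the largest fall of the fits with single mice left out. Nr1i2 encodes PXR, the partner sensor of CAR. It read 1102, 915, 852 and 795 in TgLC and 916, 949 and 680 in TgL livers, which overlapped, with a change of 0.12 and a 95% interval of -0.24 to 0.48. Nr1h4 encodes the bile acid receptor FXR and Nr0b2 encodes SHP, the repressor that FXR induces. Their changes were 0.12 (95% interval -0.18 to 0.43) and 0.36 (-0.31 to 1.02), not past the threshold. Nr1h3 (LXRα) and Nr1h2 (LXRβ), the oxysterol receptors, had -0.17 (-0.52 to 0.17) and 0.25 (-0.04 to 0.53). The intervals of PXR, FXR and both LXRs all lie above that of CAR.

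**Figure D2:**
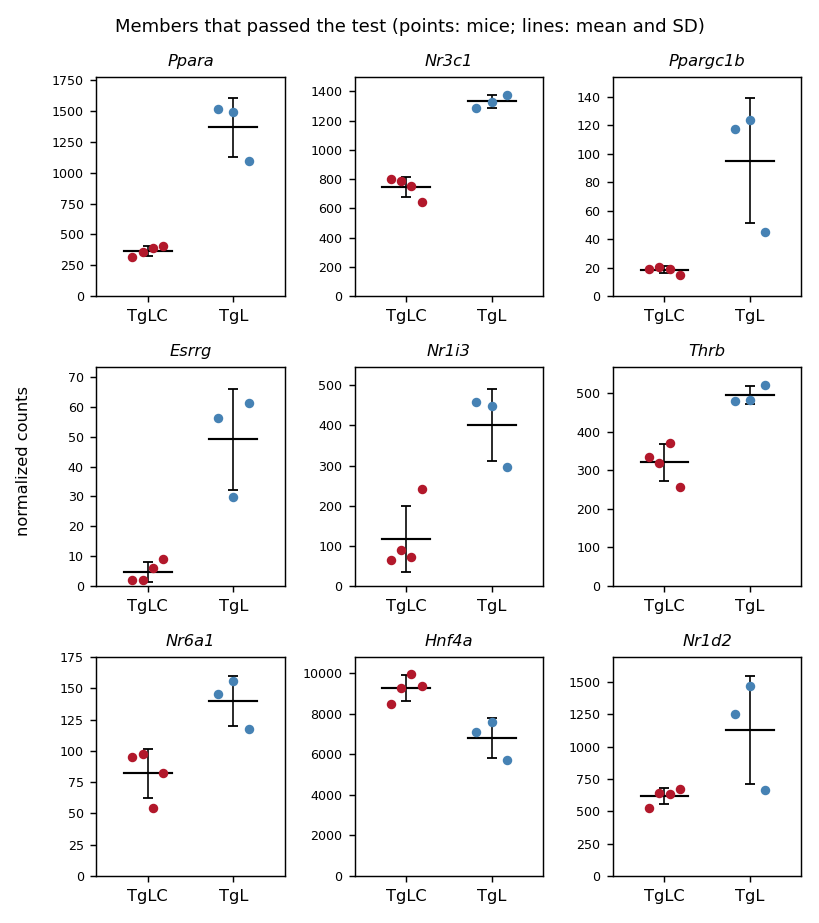
Normalized counts in each liver for the 9 members called, on axes that start at 0, with TgLC left of TgL, points for single mice, and lines for the group mean and SD. The genotypes do not overlap for 8 of these genes, while for Nr1d2 the lowest TgL liver (664) lies below the highest TgLC liver (669).

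Of the thyroid hormone receptors, Thrb, which encodes the form that predominates in hepatocytes, fell. It read 335, 320, 371 and 257 in TgLC livers and 481, 484 and 523 in TgL livers. All TgLC livers were below all TgL livers, for a log2 fold change of -0.64 ± 0.14 (95% interval -0.96 to -0.32, limma adjusted p = 0.00878). Thra, the form that predominates in heart and bone, had a change of -0.22 with a 95% interval of -0.63 to 0.19, and the difference between the forms was not tested. Vdr, the vitamin D receptor, was among the 4 genes too low to test, with 0 to 1 read in every TgLC liver and 1 to 5 reads in every TgL liver.

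None of the 6 retinoid receptors was called, where 31.2% of all genes tested were. Rxra, the main RXR of hepatocytes, read 4427, 4446, 5651 and 5463 in TgLC and 4858, 4602 and 3873 in TgL livers. The groups overlapped and the change was 0.17 ± 0.14 (95% interval -0.16 to 0.49, limma adjusted p = 0.409). Rxrg, the least abundant RXR per kilobase, read 16, 21.5, 41.5 and 30.1 in TgLC and 56.3, 35.8 and 99.9 in TgL livers. TgLC mouse 3 exceeded TgL mouse 2, and these were the only livers out of order. Its change of -1.16 ± 0.40 on the log2 scale missed the threshold (limma adjusted p = 0.0552), and passed without TgLC mouse 3 (-1.39, adjusted p = 0.0299) or without TgL mouse 2 (-1.51, adjusted p = 0.0375), as well as with DESeq2 on the recovered reads (-1.23, adjusted p = 0.0246). Rxrb had -0.07 (-0.41 to 0.28). Among the retinoic acid receptors, Rara had 0.15 (-0.39 to 0.68) and Rarg 0.21 (-0.27 to 0.70). Rarb, itself induced by retinoic acid, had -0.90 (-1.76 to -0.04), with 7 to 17 reads in TgLC and 17 to 29 reads in TgL livers (limma adjusted p = 0.103).

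Among steroid and estrogen-related receptors, 2 of 5 fell, where 15.0% of all genes tested were lower. Nr3c1, the glucocorticoid receptor, read 798, 787, 753 and 644 in TgLC livers and 1289, 1328 and 1376 in TgL livers. The genotypes were far apart relative to their spread. Its log2 fold change was -0.84 ± 0.11 (95% interval -1.09 to -0.59, limma adjusted p = 7.01e-04), between -0.87 and -0.77 with single mice left out. Esrrg encodes ERRγ, an orphan receptor that works with PGC-1 on oxidative and fasting genes. It had 2, 2.05, 6.07 and 9.02 normalized counts in TgLC livers and 56.3, 29.9 and 61.2 in TgL livers. The TgLC values rest on 2 to 9 reads each, and none reached the TgL range. Its TgLC mean was 4.78, below the 10 needed for a test. It was therefore tested through TgL livers alone and could only come out lower. Its log2 fold change of -3.25 ± 0.52 was the largest of the 35 tested (95% interval -4.43 to -2.06, limma adjusted p = 0.00187). Its relative Esrra (ERRα), a partner of PGC-1α, read 140, 117, 204 and 257 in TgLC and 217, 257 and 178 in TgL livers. These overlapped, with a change of -0.33 and a 95% interval of -0.93 to 0.27. It was -0.15 without TgLC mouse 2 and -0.52 without TgLC mouse 4, neither called, and -0.88 in the 4 mice of the label series (limma adjusted p = 0.00481).

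Nr3c2, the mineralocorticoid receptor, read 50, 53.2, 120 and 61.1 in TgLC and 101, 101 and 136 in TgL livers. TgLC mouse 3 alone lay within the TgL range. The change of -0.73 ± 0.30 missed the threshold (limma adjusted p = 0.0933), and without TgLC mouse 3 it was -1.01 (adjusted p = 0.00449). Esr1, which encodes an estrogen receptor, read 680, 504, 636 and 467 in TgLC and 369, 417 and 869 in TgL livers. TgL mouse 3 was above every other liver, and the other TgL livers were below every TgLC liver. With all mice the change was 0.14 (95% interval -0.49 to 0.78). It was 0.52 without TgL mouse 3 (limma adjusted p = 0.0743), -0.09 without TgL mouse 1, and 0.58 in the 4 mice of the label series, where it was called higher (adjusted p = 0.0269).

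Of the REV-ERBs, heme-binding repressors of the clock, Nr1d2 fell and Nr1d1 was not called. Nr1d2 read 528, 641, 634 and 669 in TgLC and 1253, 1471 and 664 in TgL livers. TgL mouse 3 sat inside the TgLC range, and the other TgL livers were well above it. With all mice the log2 fold change was -0.80 ± 0.25 (95% interval -1.35 to -0.24, limma adjusted p = 0.0365). It was -1.14 without TgL mouse 3 (adjusted p = 0.00142), and the call was lost without any of the other 6 mice, with adjusted p values of 0.0549 to 0.142, and when limma was run with no trend (adjusted p = 0.0631). Nr1d1 read 190, 306, 474 and 369 in TgLC and 1544, 993 and 350 in TgL livers. Again TgL mouse 3 was within the TgLC range. With all mice the change was -1.35 ± 0.47 (limma adjusted p = 0.0567). It was called without TgL mouse 3 (-1.96, adjusted p = 0.00602), without TgLC mouse 3 (-1.55, adjusted p = 0.0469) and with DESeq2 on recovered reads (-1.52, adjusted p = 0.0350). Rora, the activator that competes with REV-ERBs, read 846, 611, 524 and 633 in TgLC and 762, 921 and 916 in TgL livers. TgLC mouse 1 was above the lowest TgL liver, and the change of -0.42 ± 0.17 had an adjusted p of 0.0842, which became 0.0169 without TgLC mouse 1 (-0.55, limma).

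Most other clock genes were not called. Of 15 core clock and output genes tested, with a median log2 fold change of -0.07, Nfil3, a repressor, was higher (1.37, limma adjusted p = 0.00815) and Cry2, another repressor, was lower (-0.77, adjusted p = 0.00711), and 13 were not called, where 31.2% of all genes were called. The spread within TgL was wide. The output gene Per3 read 103 in TgL mouse 3 and 393 and 611 in the others, while Arntl, an activator in antiphase to these genes, read 253 against 117 and 44.8. For Nr1d1, Dbp and Per3 the value of TgL mouse 3 lay within the range of the TgLC livers (34.0 to 151 for Dbp and 50 to 135 for Per3). The part of collection time in the REV-ERB values was not tested, since no time of day was given.

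**Figure D3:**
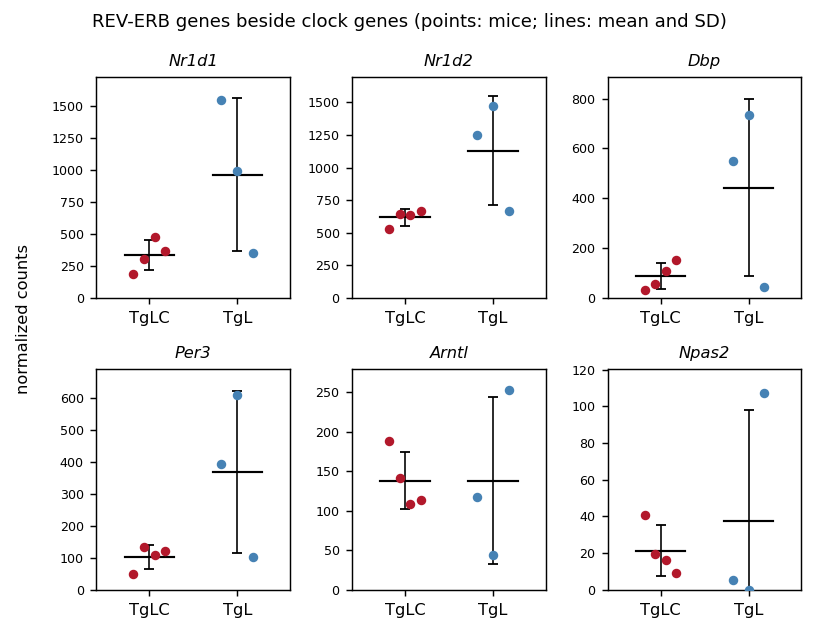
Normalized counts of the REV-ERB genes and of the clock genes Dbp, Per3, Arntl and Npas2 in each liver, TgLC left of TgL, with points for mice in order of their number and lines for mean and SD. TgL mouse 3, the rightmost TgL point, lies among the TgLC points for Nr1d1 (350), Nr1d2 (664), Dbp (45.9) and Per3 (103) and above all others for Arntl (253) and Npas2 (107).

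Hnf4a, which maintains hepatocyte identity, was the only member called higher. It read 8468, 9298, 9986 and 9386 in TgLC and 7128, 7606 and 5714 in TgL livers. All TgLC livers lay above all TgL livers. The log2 fold change was 0.45 ± 0.14 (95% interval 0.14 to 0.77, limma adjusted p = 0.0347). The call held without TgLC mouse 1 alone (adjusted p = 0.0382) and was lost in the other 6 fits with a mouse left out (0.33 to 0.54 over the 7 fits, adjusted p up to 0.122). Scaling to library totals, which shifts the median of all genes by -0.30, gave 0.13 (adjusted p = 0.460). The call was also lost with no filter on low genes (adjusted p = 0.0715) and in the 4 mice of the label series (adjusted p = 0.0743). Its relative Hnf4g was too low to test, with 5 to 11 reads in TgLC and 0 to 21 reads in TgL livers.

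Nr6a1, an orphan receptor known as GCNF that represses pluripotency genes in the embryo, read 95, 97.2, 54.6 and 82.1 in TgLC and 146, 156 and 117 in TgL livers. The genotypes did not overlap, and the log2 fold change was -0.78 ± 0.22 (95% interval -1.28 to -0.28, limma adjusted p = 0.0265). The call was lost without TgL mouse 1 (-0.75, adjusted p = 0.0932), TgL mouse 2 (-0.70, adjusted p = 0.103) or TgLC mouse 4 (-0.79, adjusted p = 0.0503). Nr5a2 encodes LRH-1, a regulator of bile acid genes, and read 736, 726, 820 and 739 in TgLC and 1030, 856 and 878 in TgL livers. Here too the groups were apart, yet the change of -0.28 (-0.54 to -0.03) was not called (limma adjusted p = 0.0845). Nr2f6, a COUP-TF relative that acts mostly as a repressor, read 378, 340, 750 and 633 in TgLC and 315, 319 and 370 in TgL livers. TgLC livers 3 and 4 were above all others and TgLC mouse 2 was within the TgL range, for a change of 0.57 ± 0.27 (adjusted p = 0.135) that was 0.76 without TgLC mouse 2 (adjusted p = 0.0498, limma). Without TgLC mouse 3 it was 0.38 (adjusted p = 0.243), and in the label series, which holds neither TgLC mouse 3 nor 4, it was 0.18 (adjusted p = 0.230).

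The testicular receptors Nr2c1 and Nr2c2, orphan regulators of diverse genes, had changes of -0.27 (-0.57 to 0.03) and -0.32 (-0.83 to 0.18), and the COUP-TF Nr2f2, abundant in veins and stroma, had 0.11 (-0.27 to 0.49). Nr4a1, an immediate early gene of the NR4A orphan receptors, read 14.0, 12.3, 26.3 and 30.1 in TgLC and 6.26, 9.95 and 49.96 in TgL livers. TgL mouse 3 was the highest of all and the other TgL livers the lowest. The change was 0.35 on the log2(value + 1) scale (95% interval -1.11 to 1.81), though the mean was 20.7 ± 8.84 (SD, n = 4) in TgLC and 22.1 ± 24.2 (SD, n = 3) in TgL livers. Nr4a2 was too low to test, with 0 to 2 reads in TgLC and 3 to 4 reads in TgL livers, as was Nr2f1, a COUP-TF, with 8 to 13 reads in TgLC and 5 to 8 reads in TgL livers.

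Levels of different genes were compared per kilobase of exon, with lengths from GENCODE M21, since the annotation of the authors was not given in the sources used here. The summed level of the 37 receptors was 5698 ± 555 (SD, n = 4) in TgLC livers and 5723 ± 769 (SD, n = 3) in TgL livers, so the total did not differ beyond its spread. Hnf4a held 33.8% ± 1.42 of it in TgLC and 24.7% ± 1.26 in TgL livers. Rxra came next in both genotypes, with 16.02% ± 0.77 in TgLC and 14.2% ± 0.36 in TgL livers, and Nr1h4 after it. These were well separated from each other. Ppara ranked 13 in TgLC and 5 in TgL livers among the 37 receptors. It held 1.68% ± 0.0856 of the sum in TgLC and 6.21% ± 0.291 in TgL livers. In TgL livers Nr1h3 (375 ± 31.9 per kilobase), Ppara (357 ± 62.4) and Nr1i2 (332 ± 57.4) did not differ beyond their spread. In TgLC livers the neighbours of Ppara were Nr3c1 (97.0 ± 9.15) and Rxrb (64.6 ± 10.8), and at 95.5 ± 10.3 it could not be set apart from Nr3c1.

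Ratios to Rxra, the shared partner, were taken within each liver. Ppara over Rxra per kilobase was 0.105 ± 0.00680 in TgLC and 0.437 ± 0.0312 in TgL livers. Nr1i3 over Rxra was 0.0284 ± 0.0178 in TgLC and 0.111 ± 0.0139 in TgL livers. Neither ratio overlapped between the genotypes. Hnf4a over Rxra was 2.12 ± 0.190 in TgLC and 1.73 ± 0.119 in TgL livers. At the low end of the order, Vdr, Nr4a2, Esrrg in TgLC livers and Nr2f1 were each represented by at most 13 reads in a library, and their order there was not resolved.

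**Figure D4:**
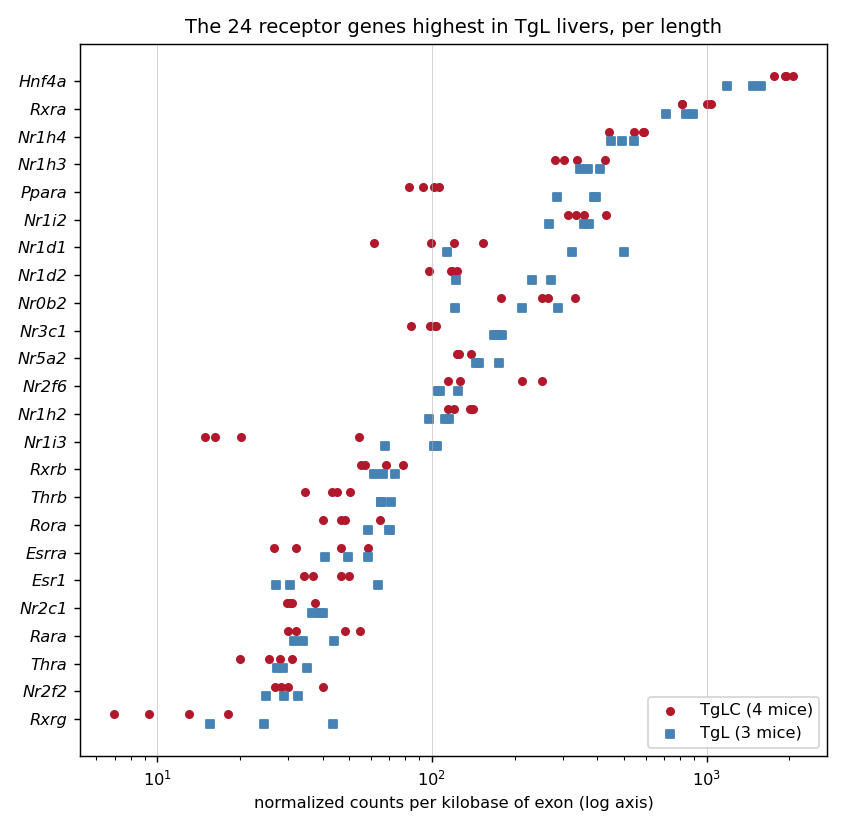
Normalized counts per kilobase of exon (log axis) in each liver for the receptor genes highest in TgL livers, with circles for TgLC mice above squares for TgL mice. Hnf4a, Rxra and Nr1h4 lead in both genotypes, and Ppara averages 95.5 in TgLC and 357 in TgL livers.

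Known target genes of the receptors were counted from short textbook lists, leaving out members of the family, and each count is to be read beside the 15.0% of all genes lower and 16.2% higher. Some genes stand on more than 1 list, so the counts are not independent of each other and not specific to 1 receptor. Of 19 tested PPARα targets, 8 were lower and 0 higher, with a median log2 fold change of -0.48, against 0.00 over all genes tested. Acaa1b, a peroxisomal thiolase, read 147, 126, 310 and 257 in TgLC and 6259, 5850 and 5319 in TgL livers, a change of -4.88 (limma adjusted p = 9.11e-06). Acsl1, a long-chain acyl-CoA synthetase, changed by -1.75 (adjusted p = 4.88e-05), while 11 of the list were not called. Of 10 tested genes of the ERRα and PGC-1 list, 5 were lower and 1 higher (median -0.47). The respiratory chain genes Sdha (-1.13, limma adjusted p = 1.09e-04) and Cox5a (-1.15, adjusted p = 2.23e-04) fell, and Tfam, the mitochondrial transcription factor, rose (0.49, adjusted p = 0.0237).

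Of 12 tested PXR and CAR targets, 6 were lower and 2 higher (median -0.96). Cyp2c29 (-2.06, limma adjusted p = 7.26e-06) and Cyp2a5 (-4.52, adjusted p = 2.27e-05), cytochromes P450 of drug metabolism, fell, but Cyp2b10, the usual marker of CAR, rose. It read 944, 547, 478 and 1075 in TgLC and 274, 309 and 158 in TgL livers (1.59, limma adjusted p = 0.00627). TgLC mouse 4, the liver with the highest Nr1i3 of its group, had the highest Cyp2b10 of all, but TgLC mouse 1, with the lowest Nr1i3, came next. Por, the reductase that serves these enzymes, also rose (0.80, adjusted p = 0.0484).

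The FXR list holds genes that FXR induces and genes that its signaling represses, so its count gives no direction for FXR targets. Of 7 tested, 5 were lower and 1 higher (median -0.88). Among those lower were the bile salt exporter Abcb11 (-1.85, limma adjusted p = 5.22e-04), which FXR induces, and 3 repressed genes. Of these, Cyp7a1, the enzyme that limits the rate of bile acid synthesis (-5.00, limma adjusted p = 1.22e-05), and Cyp8b1, the sterol 12-alpha-hydroxylase (-5.58, adjusted p = 2.52e-04), had the largest changes of the list. The FGF receptor Fgfr4 rose (0.75, limma adjusted p = 0.00166). Of 9 tested LXR targets, 7 were lower and 2 higher (median -0.94). The lipogenic genes Scd1 (-6.13, limma adjusted p = 2.69e-04) and Srebf1 (-1.69, adjusted p = 0.00141) fell. The cholesterol exporters of the list went both ways. Abca1 (1.01, limma adjusted p = 0.00968) and Abcg1 (0.63, adjusted p = 0.0409) rose, while Abcg5 (-0.65, adjusted p = 0.0310) and Abcg8 (-1.16, adjusted p = 0.00760) fell. The receptors Nr1h4, Nr1h3 and Nr1h2 were not called in these livers, as given above.

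Of 7 tested thyroid hormone targets, 5 were lower and 0 higher (median -1.89), among them malic enzyme Me1 (-1.99, limma adjusted p = 2.70e-04) and the mitochondrial glycerol phosphate dehydrogenase Gpd2 (-1.59, adjusted p = 0.00109). Of 10 tested glucocorticoid targets, 3 were higher and 1 lower (median 0.47), where 16.2% of all genes were higher and 15.0% lower. Fkbp5, a chaperone of the receptor, read 3022, 3352, 2534 and 3261 in TgLC and 1105, 916 and 735 in TgL livers, and rose by 1.74 on the log2 scale (adjusted p = 9.87e-05, limma). Tsc22d3 (GILZ) was lower (-1.05, limma adjusted p = 0.0444), and the metallothionein Mt2 was higher (5.52, adjusted p = 0.00227). Mt2 was uneven within TgLC, with 96.0 and 109 in mice 1 and 2, of the label series, and 858 and 914 in mice 3 and 4. In TgL livers it read 4.47, 1.99 and 16.3. Of 4 retinoic acid targets tested here (median -1.34), 1 was higher, namely transglutaminase Tgm2 (1.89, limma adjusted p = 7.02e-05), and 2 were lower, namely the retinal reductase Dhrs3 (-1.45, adjusted p = 6.36e-04) and the retinoic acid hydroxylase Cyp26b1 (-4.34, adjusted p = 0.00393).

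**Figure D5:**
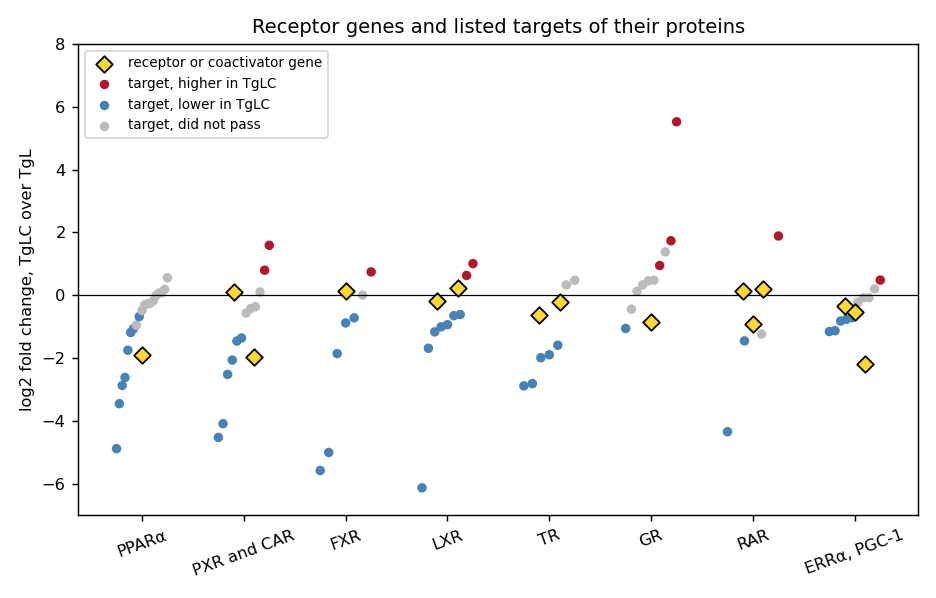
Log2 fold change (TgLC over TgL) of each target gene tested, grouped by the receptor whose list it belongs to and colored by its call, with diamonds for the genes of the receptors or coactivators themselves. PPARα targets run from -4.88 (Acaa1b) to 0.56 (Creb3l3) beside Ppara at -1.89, and Cyp2b10 (1.59) is the highest target beside Nr1i3 at -1.96.

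Of 20 other coregulators of nuclear receptors tested, 4 were higher and 3 lower (median -0.12), against 31.2% of all genes called in either direction. The acetyltransferase Kat2b (-0.80, limma adjusted p = 9.28e-04) and the steroid receptor coactivator Ncoa3 (-0.87, adjusted p = 0.00302) fell. Tbl1xr1, a subunit of the NCoR and SMRT corepressor complex, rose (0.78, adjusted p = 0.00421), and so did Pprc1, the third member of the PGC-1 family, which read 205, 225, 239 and 200 in TgLC and 111, 154 and 101 in TgL livers (0.85, adjusted p = 0.00514). Pprc1 was thus higher in every TgLC liver, while Ppargc1b was lower in every TgLC liver and Ppargc1a was not called.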

How the data were processed

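Liver poly-A RNA of 4 TgLC and 3 TgL mice was sequenced. Per the submitters' processing notes, the tools were DESeq2 1.20.0, featureCounts 1.5.0-p3, HISAT2 2.0.5 and fastp. Which genome build, annotation and strand setting applied is not given in the sources used here. The deposited values are a normalized signal, counts divided by the authors' size factor for each mouse. Dividing by the value of 1 read gave whole reads for 100% of values (within 1e-06). Symbols matched 22679 of 23594 identifiers. Log2(value + 1) was fitted with limma 3.58.1 (R 4.3.3, empirical Bayes with an intensity trend, genotype as the only term) for 13145 genes averaging 10 or more (10449 were left out), with Benjamini-Hochberg adjustment over all of them. Fold changes on this scale understate those of low genes. The threshold was an adjusted p under 0.05, and 2-fold changes had a log2 of at least 1. Alternatives were DESeq2 1.42.0 and edgeR 4.0.16 on recovered reads with several scalings, pseudocounts 0.5 and 5, other filters, no trend, leaving out each mouse, and the 4 mice of the label series (TgL 1 and 2, TgLC 1 and 2). Sex could not be fitted, because all 7 mice read as female by Xist. Mice of 1 genotype differed by more than sampling noise (chi-square per degree of freedom 9.03 to 47.4), and each counted as 1 replicate. Promoters came from RefSeq (GRCm38.p6). The limma script was tested on simulated data.

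The members, target lists and coregulators were chosen with earlier results of these data known, so their counts are descriptions. Every member is accounted for. Full values are given for those called or whose call changed when 1 mouse was left out. Of other genes, each list has at most 2 risen and 2 fallen genes named, by smallest adjusted p, with Lif and Socs3 as checks. Beyond these, clock genes of the list, Alb, Abcb11, Abcg5, Abcg8 and pancreas markers were chosen after their values were seen. Creb3l3 is named as the end of a plotted range. A gene of the target lists is not reported here and was left out of its list's count and median.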

Additional observations from a re-analysis of the deposited data

Results flagged for a closer look

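In 39 groups of 4 TgLC livers, the highest or lowest liver was set against the rest, with the gap to the nearest liver divided by the whole range. A ratio above Dixon's 95% critical value was found for 5 members, and chance gives about 1 in 20 groups. Nr1i3 was 240.4 normalized counts in TgLC mouse 4 and at most 89.1 in the others, Nr3c2 was 120.4 in TgLC mouse 3 and at most 61.1 in the others, and Nr5a2 was 819.6 in TgLC mouse 3 and at most 739 in the others. Ppard was 135 in TgLC mouse 1 and at most 110 in the others. Vdr was 0 in TgLC mouse 4 and 1.00 to 1.02 in the others, each of which rests on 1 read.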

How the results depend on the processing

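Ppara, Nr3c1, Ppargc1b, Esrrg, Nr1i3 and Thrb kept their direction and their call under every alternative run, save that Esrrg was below the stricter minimum of 50 and not tested there. On recovered reads DESeq2 called 2310 genes higher and 2106 lower, and edgeR with TMM 2166 and 2133. The fit with sex as a covariate was not run. Scaling to library totals moved the median of all genes by -0.30, so sign changes there are to be read against that shift. It gave 0 members higher, 17 lower and 10 lower by at least 2-fold, with 1201 genes higher and 4340 lower, and turned Ppard (-0.21), Nr0b2 (-0.0122), Nr1h2 (-0.0707), Nr1h4 (-0.19), Nr1i2 (-0.20), Rxra (-0.15), Rara (-0.14), Rarg (-0.0908), Esr1 (-0.27), Nr2f2 (-0.20) and Nr4a1 (-0.41). The 4 mice of the label series gave 2 members higher (Ppard and Esr1), 14 lower (Nr1d1, Nr1h3, Rxrg, Nr3c2, Esrra and Nr5a2 besides the 8) and 7 lower by at least 2-fold. More genes were called there over the whole transcriptome too, with 2474 higher, 2613 lower and 1006 lower by at least 2-fold. With all mice these were 2127, 1977 and 874. The label series turned Nr0b2 (-0.23), Nr1h4 (-0.0795), Rxra (-0.092), Rara (-0.32) and Nr2f2 (-0.11). Nr4a1 was -0.0881 with DESeq2, -0.10 with edgeR and TMM, and -0.0776 with edgeR and DESeq2 size factors. Without a filter 0 members were higher, with 2067 genes higher. The cause was not tested, except that library totals shift all genes.

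Leaving out single mice gave 0 to 2 members higher, 6 to 10 lower and 4 to 7 lower by at least 2-fold, with 1381 to 2072 genes higher and 1205 to 2047 lower. With all mice 2127 genes were higher and 1977 lower, against 1381 and 1205 without TgL mouse 1 and 1446 and 1248 without TgL mouse 2. The member count higher was 0 without TgL mouse 1 or 2 or TgLC mouse 3 or 4, and 2 without TgLC mouse 1. The count lower by at least 2-fold was 6 without TgL mouse 3 and 7 without TgLC mouse 3, where 812 and 931 of all genes were. Directions turned within these ranges for Nr1i2 (-0.0356 to 0.20), Rxrb (-0.16 to 0.0057), Rara (-0.0056 to 0.29), Esr1 (-0.0918 to 0.52), Nr2f2 (-0.0145 to 0.20) and Nr4a1 (-0.22 to 1.19).

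No paired analysis was possible because the labels give no replicate numbers shared between genotypes. Depth limits Esrrg, Vdr, Nr4a1, Nr4a2, Nr2f1, Hnf4g and Rarb, which had under 15 reads in several livers.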
